A study of Gallus gallus with 4 samples.

Results

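The genes described here are named for proteins of the mitochondrial ribosome of the chick. They were found by symbol, as every gene of the array whose name starts with MRPL (large subunit) or MRPS (small subunit) followed by a digit. 67 of the 13008 named genes met this rule, 43 of the large and 24 of the small subunit by symbol. By place in the mammalian ribosome MRPS30 and MRPS18A belong to the large subunit, and MRPS36 was placed in neither. A gene with several probe sets was read from the one with the highest signal averaged over the 4 arrays, and 64 members (40 large, 24 small) had a signal above the 40th percentile of all chicken probe sets, as did 10505 named genes in all.

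The chorio-allantoic membrane (CAM) is the vascularized breathing membrane of the chick embryo, made of 2 epithelia around a stroma with vessels. The VEGF CAMs were 3 single membranes, each under a Thermanox plastic disc carrying 3 µg of dried human recombinant VEGF-A from embryonic day 13, and the tissue beneath the disc was frozen 24 h later at day 14. The control was 1 array of RNA pooled in equal amounts from 3 normal CAMs of day 14, which the labels call normal, while the study also speaks of control CAMs given solvent. A disc from day 13 is recorded for the control as well, and the study's figure legend names a disc border on control CAMs. All 4 arrays were of whole tissue with no genetic change. The VEGF tissue was taken where new capillaries were visible, and a pool leaves the spread between control CAMs unmeasured.

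Mitochondrial ribosomes make the few proteins that mitochondria still encode, all of them subunits of the respiratory chain and ATP synthase. Every protein of the mitochondrial ribosome is itself encoded in the nucleus, made in the cytosol and imported. The particle resembles a bacterial ribosome, with a small subunit that decodes the mRNA and a large subunit that joins amino acids, but much of its RNA has been lost and many proteins without a bacterial counterpart have been added.

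The tissue markers differed between the groups as follows. The 4 measured epithelial markers of 8 listed (EPCAM, CDH1, KRT7, CLDN4) summed to signals of 24097 to 35929 in the VEGF CAMs and 32405 in the control pool, with 0 called by the 2-fold rule given below. The 8 of 8 blood endothelial markers, among them the VEGF receptors KDR and FLT1 and the angiopoietin receptor TEK, summed to 3664 to 6457 in the VEGF CAMs and 2034 in the control pool, and all 8 were more than 2-fold higher by that rule. The 5 of 5 fibroblast markers summed to 33504 to 47035 in the VEGF CAMs and 25065 in the control pool, with 1 higher (COL1A1). The 3 measured red blood cell markers of 6 listed summed to 23271 to 37567 in the VEGF CAMs and 26764 in the control pool, with 1 higher (SLC4A1). No marker was at 0 on any array. The ratio of 3' to 5' signal is a sign of RNA integrity and is higher where RNA is less intact. For actin it was 15.5, 19.7 and 22.9 in VEGF CAMs 1, 2 and 3 and 24.2 in the control pool. In the same order that of GAPDH was 43.2, 58.0, 66.9 and 67.0, and that of EF1a 5.74, 6.65, 7.38 and 8.74. The pool was highest in each, in GAPDH almost level with VEGF CAM 3. On every array and in each of these genes the 3' signal was at least 5.74 times the 5' signal. The part of cell makeup or RNA integrity in the values below was not tested, and in bulk tissue fewer cells of a type and less RNA per cell cannot be told apart.

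Most mitoribosomal genes were within 2-fold of the control pool on all 3 VEGF CAMs, as were most genes. The median of their mean log2 ratios (VEGF CAM to control pool) was -0.12 over the 64 members, -0.04 over the large subunit and -0.24 over the small subunit, against -0.07 over all 10505 genes, and centring the arrays on their medians moved all 4 of these medians above 0. A gene was called when its signal differed more than 2-fold from the control pool, the same way, in at least 2 of the 3 VEGF CAMs. By this rule 2 members were lower (MRPL1 and MRPL47, 3.12%, against 6.03% of all genes), 1 was higher (MRPL10, 1.56%, against 5.37% of all genes) and 61 were neither. In 53 members (82.8%, against 69.5% of all genes) no VEGF CAM was more than 2-fold from the control pool.

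Brightness bears on these shares, since dim probe sets vary more. Among members with a mean signal over 100, 45 of 52 (86.5%) had no VEGF CAM beyond 2-fold, against 84.8% of all genes over that signal. Of the same 52 members 1 was lower by the 2-fold rule (1.92%, against 1.68% of all genes over that signal) and 0 were higher (against 3.25%). Their median log2 ratio was -0.09, against 0.01 over all genes above that signal. With limma, 0 members passed an adjusted p of 0.05, as did 0.0% of all genes, and the lowest adjusted p of a member was 0.69. At an unadjusted p under 0.05, limma gave 2 members higher (MRPL10 and MRPS7, 3.12%, against 3.98% of all genes) and 0 lower (0.0%, against 2.11%). The only replicate spread behind these p-values is that among the 3 VEGF CAMs, which the fit takes to hold for the control pool as well. An exact permutation test of a single gene cannot go below p = 0.25 with 3 arrays against 1.

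**Figure D1:**
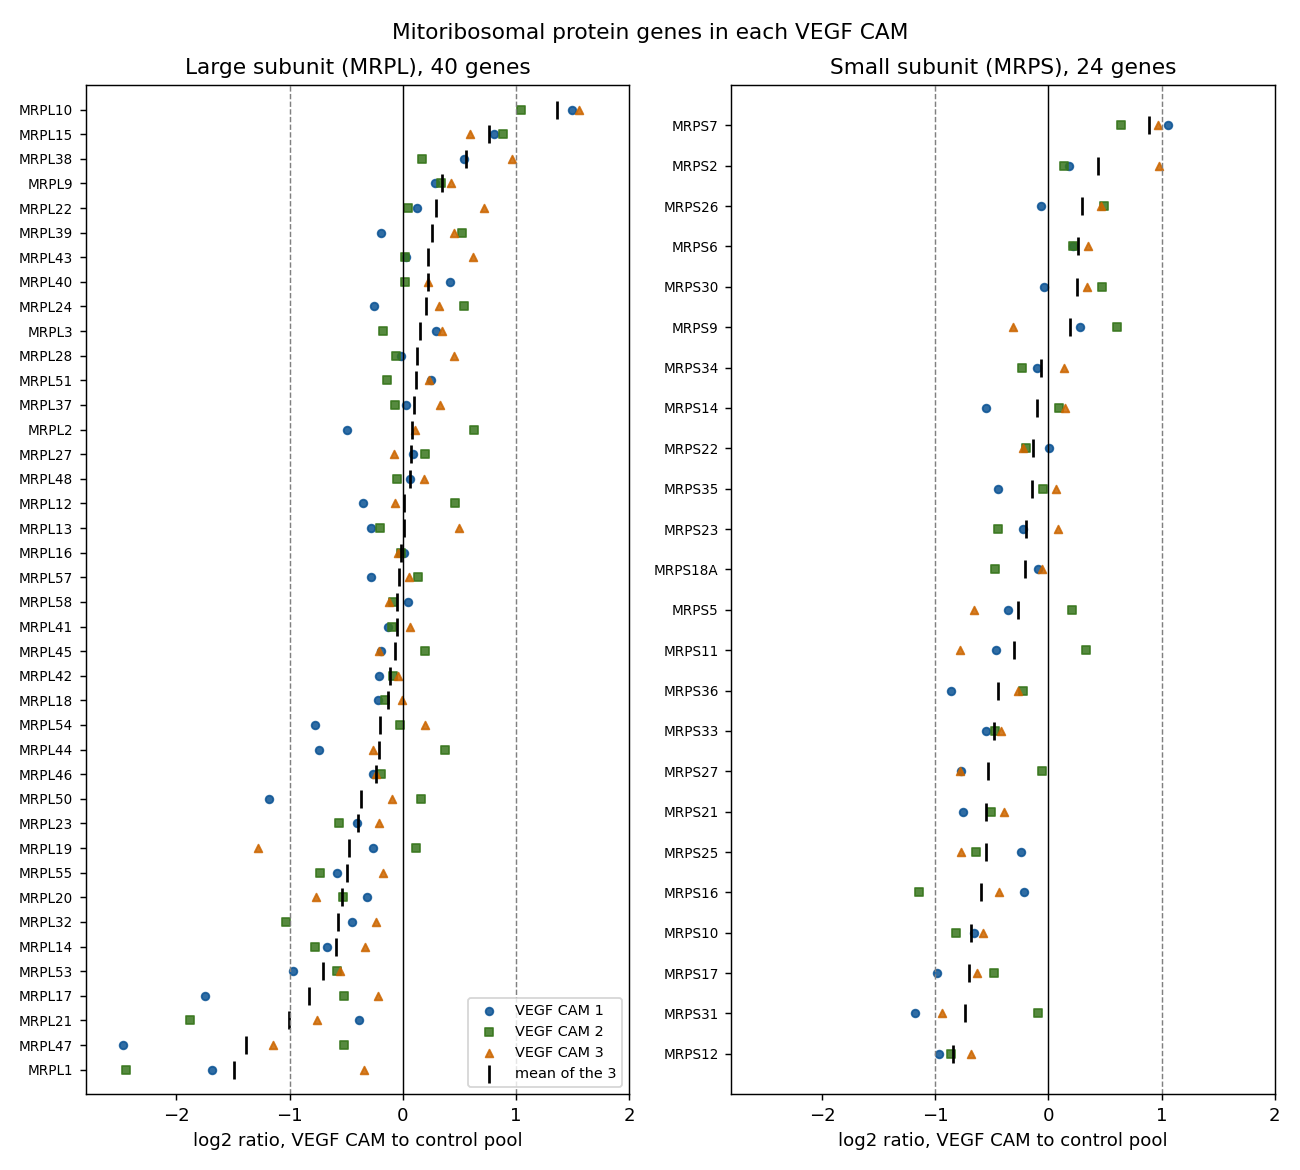
Log2 ratio of each VEGF CAM to the control pool (horizontal axis) for the 40 large and 24 small subunit genes above the signal filter, ordered by their mean (black bar), with dashed lines at 2-fold. MRPL10 alone has 3 points beyond the upper line, MRPL1 and MRPL47 have 2 points beyond the lower line, and most genes lie between the lines on all 3 VEGF CAMs.

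**Figure D2:**
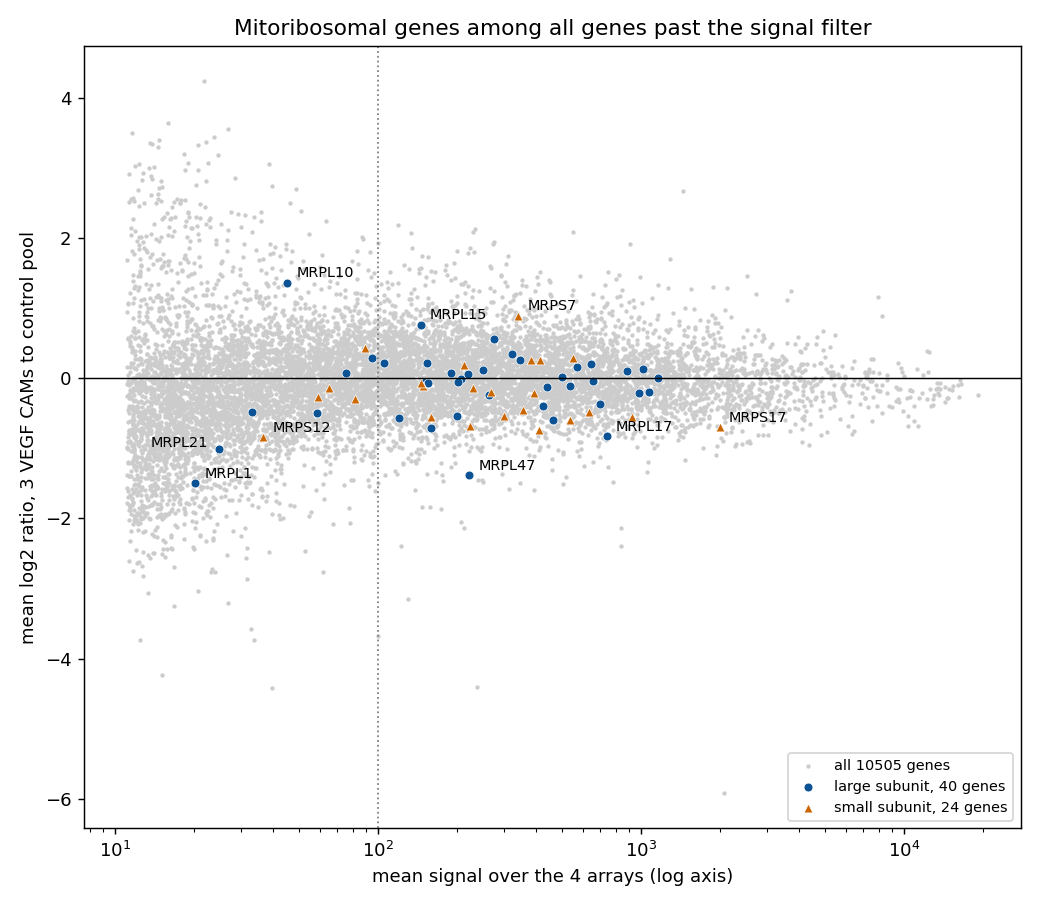
Mean log2 ratio of the 3 VEGF CAMs to the control pool (vertical axis) against mean signal over the 4 arrays (horizontal log axis), for the large subunit (blue circles), the small subunit (orange triangles) and all 10505 genes (grey). The dotted line marks a signal of 100, with MRPL1, MRPL21, MRPS12 and MRPL10 left of it and the other labelled members right of it.

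In the large subunit, MRPL10 had the highest mean log2 ratio. MRPL10 anchors the stalk, the flexible arm that recruits translation factors. Its signal was 57.6, 42.2 and 60.4 in VEGF CAMs 1, 2 and 3 and 20.5 in the control pool. Each VEGF CAM was more than 2-fold above the control pool. In 24.6% of all genes all 3 VEGF CAMs were above the pool by any margin. The mean log2 ratio was 1.36 ± 0.42 (limma SE, 3 VEGF CAMs, 2.57-fold), with an unadjusted p of 0.014 and an adjusted p of 0.69 by limma. With an offset of 32 added to every signal MRPL10 was not called. MRPL12, another stalk protein, contacts the factors. It gave 381, 668 and 462 in VEGF CAMs 1, 2 and 3 and 486 in the control pool. The pool lay inside the range of the VEGF CAMs.

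MRPL15, a core protein that binds the large ribosomal RNA, had a signal of 167, 176 and 144 in VEGF CAMs 1, 2 and 3 and 95.4 in the control pool. The VEGF CAMs were all above the pool and close to each other, with none reaching 2-fold and a mean log2 ratio of 0.76 ± 0.34 (limma adjusted p = 0.81). MRPL38, a mitochondria-specific protein of the central protuberance, where the subunit meets the head of the small one, had 291, 225 and 390 in the VEGF CAMs and 199.9 in the control pool. MRPL9, a protein with a bacterial counterpart, had 326, 338 and 359 in the VEGF CAMs and 268 in the control pool. All 3 VEGF CAMs lay above the pool for both, at mean log2 ratios of 0.56 for MRPL38 and 0.35 for MRPL9.

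At the other end of the large subunit was MRPL1, which forms the movable arm beside the site where spent tRNA leaves. Its signal was 11.03, 6.49 and 27.9 in VEGF CAMs 1, 2 and 3 and 35.5 in the control pool. VEGF CAMs 1 and 2 were more than 2-fold below the pool and VEGF CAM 3 was near it, so the mean log2 ratio of -1.49 had an SE of 0.93 (limma adjusted p = 0.86). The signals of VEGF CAMs 1 and 2 are below the filter at 11.1, which the gene passed through its mean over the 4 arrays. MRPL1 was not called with an offset of 32 added to every signal. Without either of these 2 VEGF CAMs it could not be called, since the rule still needed 2 VEGF CAMs beyond 2-fold.

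MRPL47 sits at the exit tunnel, through which new chains leave the ribosome toward the inner membrane. It had a signal of 68.7, 266 and 172 in VEGF CAMs 1, 2 and 3 and 382 in the control pool. VEGF CAM 1 was lowest by far, and no VEGF CAM reached the pool. The mean log2 ratio was -1.38 ± 0.68 (limma adjusted p = 0.85), and MRPL47 was not called with arrays centred on their median. Only VEGF CAMs 1 and 3 were beyond 2-fold, so without either of them MRPL47 could not be called.

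MRPL17, also of the exit tunnel, had 309, 725 and 893 in VEGF CAMs 1, 2 and 3 and 1038 in the control pool. VEGF CAM 1 alone was more than 2-fold below the pool, and the mean log2 ratio was -0.83 ± 0.57. MRPL21, which has a bacterial counterpart, had 29.0, 10.3 and 22.4 in the VEGF CAMs and 37.9 in the control pool, with VEGF CAM 2 alone beyond 2-fold and a mean log2 ratio of -1.01 ± 0.70.

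MRPL53, without a bacterial counterpart, had 113, 148 and 151 in VEGF CAMs 1, 2 and 3 and 222 in the control pool (mean log2 ratio -0.71 ± 0.35). MRPL14, which lies on the face toward the small subunit, had 385, 358 and 487 in the VEGF CAMs and 613 in the control pool (mean log2 ratio -0.59 ± 0.33). For these 4 genes every VEGF CAM was below the pool, and their limma adjusted p was 0.85 or 0.86.

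The large subunit probe sets of highest signal showed no common direction. MRPL13 gave 933, 983 and 1599 in VEGF CAMs 1, 2 and 3 and 1132 in the control pool, and MRPL28 gave 933, 902 and 1290 in the VEGF CAMs and 943 in the control pool. MRPL44, whose protein carries an RNase III fold, gave 633, 1366 and 879 in the VEGF CAMs and 1056 in the control pool. MRPL54 gave 675, 1135 and 1322 in the VEGF CAMs and 1153 in the control pool. The pool lay inside the range of the VEGF CAMs for all 4, and their mean log2 ratios were 0.01, 0.12, -0.21 and -0.20 in this order. MRPL16, which is near the catalytic centre, is the steadiest member, chosen here after its values were seen: 210, 205 and 202 in the VEGF CAMs and 208 in the control pool, within 1.04-fold over the 4 arrays.

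**Figure D3:**
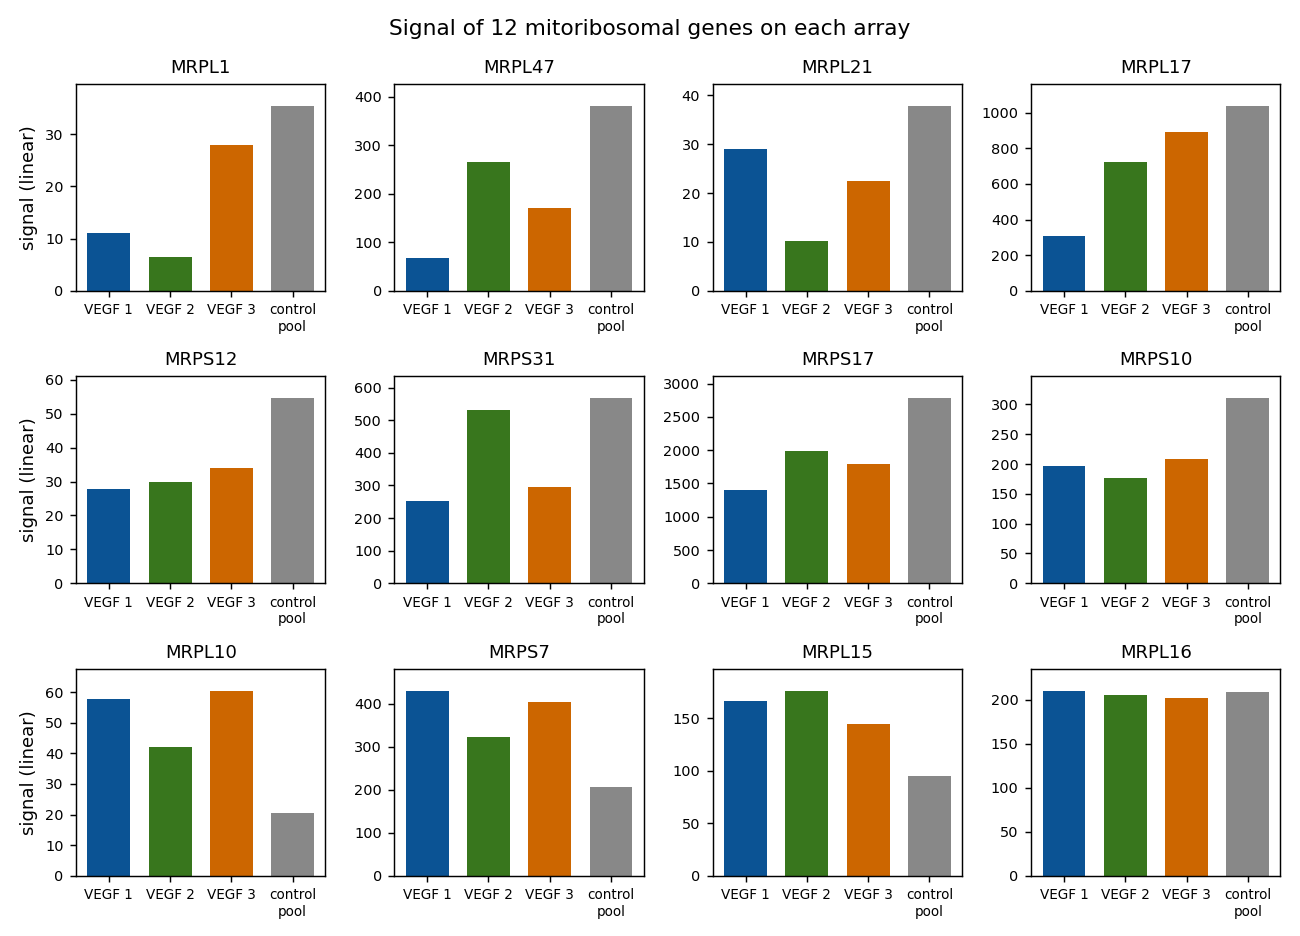
Linear signal (vertical axis, own scale in each panel) of 12 mitoribosomal genes in VEGF CAMs 1, 2 and 3 and the control pool, 1 bar per array. In MRPL10, MRPS7 and MRPL15 the 3 VEGF bars stand above the pool, in MRPL16 the 4 bars are level, and in the other 8 genes the 3 VEGF bars are below the pool with unequal heights in MRPL1, MRPL47, MRPL21, MRPL17 and MRPS31.

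In the small subunit 0 of 24 genes were called in either direction (against 6.03% lower and 5.37% higher over all genes), and 21 (87.5%, against 69.5% of all genes) had no VEGF CAM beyond 2-fold. Over all genes with a mean signal over 100 these shares were 1.68%, 3.25% and 84.8%. MRPS7, a head protein that binds the small ribosomal RNA, was the highest. Its signal was 431, 323 and 405 in VEGF CAMs 1, 2 and 3 and 207 in the control pool. All 3 VEGF CAMs were above the pool but VEGF CAM 1 alone passed 2-fold, and the mean log2 ratio was 0.89 ± 0.33 (limma unadjusted p = 0.030, adjusted p = 0.74). A second, dimmer probe set of MRPS7 gave the opposite sign, with a mean log2 ratio of -0.42, so the direction of this gene is uncertain.

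The next highest were MRPS2, MRPS26 and MRPS6. MRPS2, which joins head and body, had 77.8, 75.7 and 135 in VEGF CAMs 1, 2 and 3 and 68.6 in the control pool, mostly through VEGF CAM 3. MRPS26 had 446, 655 and 644 in the VEGF CAMs and 467 in the control pool, with VEGF CAM 1 just below the pool (RefSeq also lists GNRH2 as a synonym of this entry). MRPS6, of the platform, had 417, 419 and 457 in the VEGF CAMs and 359 in the control pool, all of them above it at a mean log2 ratio of 0.26.

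More small subunit genes lay on the other side, in 11 of 24 (45.8%) with all 3 VEGF CAMs below the control pool, against 32.5% of the large subunit and 29.8% of all genes. MRPS12, the protein of the decoding centre that guards accuracy, had the lowest mean. Its signal was 27.9, 30.0 and 33.9 in VEGF CAMs 1, 2 and 3 and 54.5 in the control pool. The VEGF CAMs were close together and all below the pool, none of them by 2-fold, at a mean log2 ratio of -0.84 ± 0.42 (limma adjusted p = 0.85).

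MRPS17, a body protein that binds the ribosomal RNA, had 1407, 1994 and 1797 in VEGF CAMs 1, 2 and 3 and 2779 in the control pool. All 3 VEGF CAMs were below the pool, as in 29.8% of all genes, and the mean log2 ratio was -0.70 ± 0.30 (limma adjusted p = 0.80). MRPS10, of the head, had 197, 176 and 209 in the VEGF CAMs and 310.3 in the control pool. Its VEGF CAMs were likewise all below the pool, with little spread among them (mean log2 ratio -0.68 ± 0.32). MRPS31, a mitochondria-specific protein, had 251, 531 and 296 in the VEGF CAMs and 567 in the control pool, with VEGF CAM 2 near the pool and a mean log2 ratio of -0.74 ± 0.46.

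MRPS16, of the body, had 605, 319 and 518 in VEGF CAMs 1, 2 and 3 and 703 in the control pool, lowest in VEGF CAM 2. MRPS25 had 174, 132 and 121 in the VEGF CAMs and 206 in the control pool. MRPS21, of the platform, had 717, 850 and 924 in the VEGF CAMs and 1209.6 in the control pool. The VEGF CAMs were all below the pool in these 3 genes, with mean log2 ratios of -0.60, -0.55 and -0.55 and SE of 0.41, 0.36 and 0.30.

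Grouped by place in the mammalian mitoribosome, the 4 body genes (MRPS5, MRPS12, MRPS16, MRPS17) had the lowest median, -0.65. The genes differed among themselves, as on VEGF CAM 2, where MRPS16 was at -1.14 and MRPS5 at 0.21. The 7 exit tunnel genes had a median of -0.40, with MRPL47 and MRPL17 at the low end and MRPL22 the highest at 0.29. The 7 central protuberance genes had a median of 0.06 and 0 with a VEGF CAM beyond 2-fold, the 4 head genes 0.04 and the 3 platform genes -0.30. These groups are small and no test compares them. Of genes with a bacterial counterpart 35 were above the filter, with a median of -0.13, all 3 calls and 26 (74.3%) without a VEGF CAM beyond 2-fold. The 28 mitochondria-specific genes had a median of -0.09, 0 calls, and 26 (92.9%) without a VEGF CAM beyond 2-fold. That share was 69.5% of all genes and 84.8% of those with a mean signal over 100. Over all genes 6.03% were lower and 5.37% higher, and no test compares the 2 classes. The classes also differ in brightness, since nearly all of the 12 members with a mean signal up to 100 have a bacterial counterpart. Among them are the called MRPL1 and MRPL10, at mean signals of 20.2 and 45.2.

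Over all members, 24 of 64 (37.5%, against 29.8% of all genes) had every VEGF CAM below the control pool and 10 (15.6%, against 24.6% of all genes) had every VEGF CAM above it. The mean log2 ratio was below 0 in 40 members (62.5%, against 55.0% of all genes), in 22 of 40 of the large and in 18 of 24 (75.0%) of the small subunit. With arrays centred on their medians these counts turned over, to 10 members with every VEGF CAM below the pool and 25 with every VEGF CAM above it. A mean below 0 was then found in 24 members (37.5%, against 35.7% of all genes), so all genes shifted the same way. As deposited, of the 52 members with a mean signal over 100, 32 had a mean below 0 (61.5%, against 49.0% of all genes over that signal). In 20 (38.5%, against 26.7%) every VEGF CAM was below the pool and in 7 (13.5%, against 28.5%) above it. The median of the small subunit minus that of the large was -0.19, and was -0.06, -0.09 and -0.27 on VEGF CAMs 1, 2 and 3. It was negative on each VEGF CAM, but the same pool stands behind all 3 values.

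Over all members VEGF CAM 1 was lower than the other two. The median log2 ratio over the 64 members was -0.25, -0.07 and -0.07 on VEGF CAMs 1, 2 and 3, whereas all genes gave -0.05, -0.04 and -0.03. This was so in the large subunit, at -0.24, -0.06 and -0.02, but in the small subunit VEGF CAMs 1 and 3 were alike, at -0.30, -0.15 and -0.29. VEGF CAM 1 was the lowest of the 3 in 28 members (43.8%, against 34.0% of all genes). The spread of a member over the VEGF CAMs had a median SD of 0.27 on the log2 scale, against 0.33 for all genes. With a mean signal over 100 the median SD was 0.23 for members and 0.26 for all genes. VEGF CAM 1 also had the lowest 3' to 5' ratio of actin, 15.5. Of the 3 VEGF CAMs it had the lowest sums of epithelial (24097), fibroblast (33504) and red blood cell (23271) markers. Its sum of blood endothelial markers, 6330, was not the lowest (3664 in VEGF CAM 2). The part of RNA integrity or cell makeup in this was not tested.

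Several probe sets let 15 members be read more than once. In 11 of them the mean log2 ratios of all probe sets above the filter had the same sign. Examples are MRPL17 with -0.83, -0.74 and -0.23, MRPL38 with 0.56 and 0.45 and MRPL9 with 0.35 and 0.29. In 4 the signs differed. Beside MRPS7 these were MRPS33 (-0.48 and 0.45), MRPL3 (0.16 and -0.52) and MRPL43 (0.22 and -0.14), where the first value is that of the brighter probe set. The direction of these 4 genes depends on the probe set read. Single VEGF CAMs could differ even where the means had the same sign. The second MRPL9 probe set had VEGF CAM 1 below the pool (log2 ratio -0.083), and a dimmer MRPL17 probe set had VEGF CAM 3 above it (0.17). Each dimmer MRPS16 probe set had a VEGF CAM above the pool, while both MRPL38 probe sets had every VEGF CAM above it.

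The 3 members below the filter gave signals too low to call. MRPL30 had 5.999, 4.59 and 9.46 in VEGF CAMs 1, 2 and 3 and 12.8 in the control pool, and MRPL34 had 4.34, 5.58 and 6.01 in the VEGF CAMs and 6.34 in the control pool. MRPL33 had 2.50, 17.9 and 1.99 in the VEGF CAMs and 6.14 in the control pool, scattered on both sides of it.

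Other genes of mitochondrial translation were set beside the members. Of 7 mitoribosomal proteins under other names 4 were above the filter (median log2 ratio -0.07), with 0 called. DAP3, a GTP-binding small subunit protein, had 96.0, 19.5 and 136 in VEGF CAMs 1, 2 and 3 and 130 in the control pool, lowest in VEGF CAM 2 alone. Of 15 mitochondrial translation factors 10 were above the filter (median -0.27). By the 2-fold rule 2 were lower (20%, against 6.03% of all genes) and 0 higher (against 5.37%). C12orf65, a release factor-like protein that frees stalled ribosomes, had 410, 709 and 519 in the VEGF CAMs and 1481 in the control pool. It was more than 2-fold below the pool on every VEGF CAM, at a mean log2 ratio of -1.48 ± 0.37 (limma adjusted p = 0.65). GFM2, which splits ribosomes after termination, had 14.5, 29.8 and 2.16 in the VEGF CAMs and 32.2 in the control pool (mean log2 ratio -1.72, SE 1.44). Its call came from VEGF CAMs 1 and 3, and the signal of VEGF CAM 3 was below the filter at 11.1.

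Mitochondrial aminoacyl-tRNA synthetases, which charge tRNAs, had 11 of 17 above the filter, a median log2 ratio of -0.13 and 0 calls, and NARS2 was lowest at -1.08. Factors of mitoribosome assembly and rRNA modification had 22 of 27 above the filter and a median of 0.14. Of these 1 was lower (4.55%, ERAL1, a chaperone of the small ribosomal RNA, mean log2 ratio -0.84) and 0 higher. Genes of mitochondrial DNA maintenance and transcription had 15 of 18, a median of 0.13, 1 lower call (6.67%, PRIMPOL) and 0 higher. PRIMPOL had 22.7, 9.85 and 2.00 in VEGF CAMs 1, 2 and 3 and 22.5 in the control pool (mean log2 ratio -1.56, SE 1.53). VEGF CAMs 2 and 3, which gave this call, were below the filter at 11.1. Over all genes 6.03% were lower and 5.37% higher, or 1.68% and 3.25% of those with a mean signal over 100. In the assembly and DNA maintenance lists the median was positive, that of the assembly factors except on VEGF CAM 3 (-0.05).

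Mitochondrial protein import had a lower median (22 of 29 above the filter, median log2 ratio -0.38, 0 called). So did complex I of the respiratory chain (34 of 38, -0.28), with 1 lower (2.94%) and 0 higher. Complexes II to V had 27 of 38, a median of -0.19, 2 lower (7.41%, ATP5E and UQCRB) and 1 higher (3.70%, COX5A). ATP5E had 11.7, 4.34 and 10.98 in VEGF CAMs 1, 2 and 3 and 32.3 in the control pool. Its signals on VEGF CAMs 2 and 3 were below the filter at 11.1. The 13 mitochondrially encoded subunits, the products of these ribosomes, were not analysed here. Cytosolic ribosomal proteins, which form the ribosomes outside mitochondria, had 56 genes, a median of -0.28, 2 lower (3.57%, RPL31 and RPL29) and 0 higher. Their medians on VEGF CAMs 1, 2 and 3 were -0.60, -0.14 and -0.13, so VEGF CAM 1 was lowest there too. Over all genes 6.03% were lower and 5.37% higher, or 1.68% and 3.25% of those with a mean signal over 100. All of these list comparisons share the 1 control pool, and no list was tested.

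**Figure D4:**
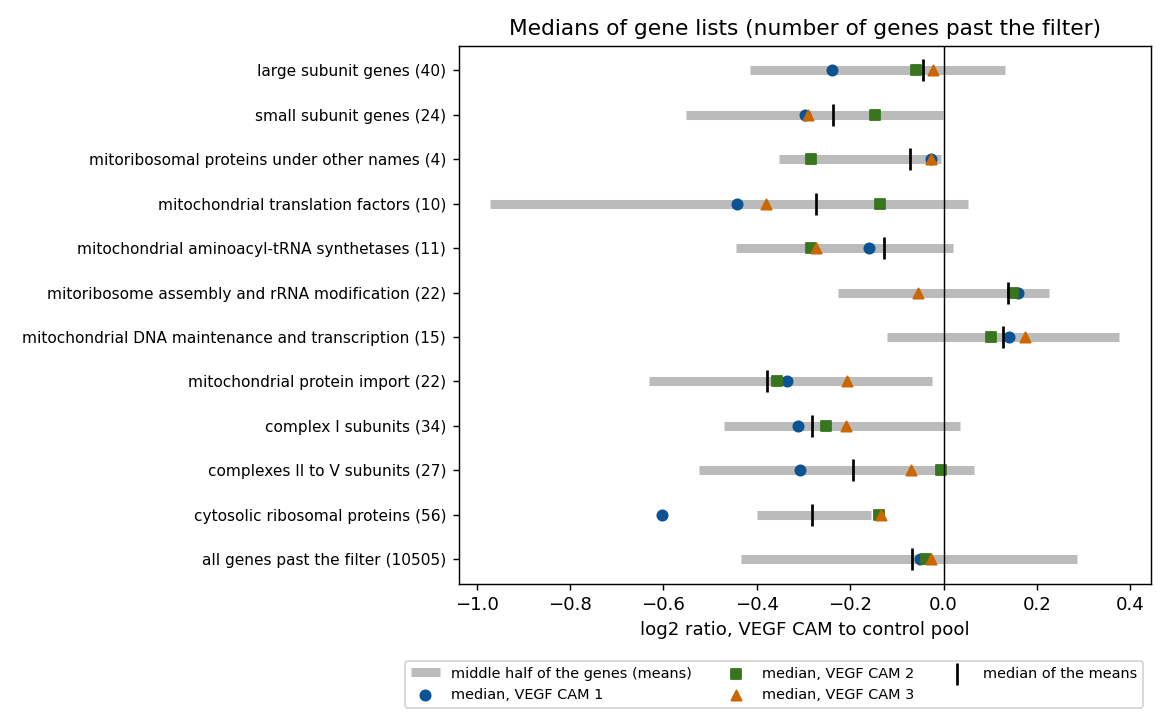
Median log2 ratio of the VEGF CAMs to the control pool (horizontal axis) in the large and small subunit genes, related mitochondrial lists, cytosolic ribosomal proteins and all genes, with the number of genes above the filter in brackets. Points are medians on single VEGF CAMs, black bars medians of the means and grey bars their interquartile range, and the small subunit (-0.24) lies between the large subunit (-0.04) and protein import (-0.38).

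The sign of these medians depended on how the arrays were scaled. The deposited signals share a trimmed mean of 100.03 to the nearest 0.01. Centring each array on its median signal moved the median of all genes to 0.19, the large subunit to 0.21 and the small subunit to 0.02. Centring shifts all genes of an array alike, so it cannot alter the distance of a subunit from all genes, which was -0.17 for the small and 0.02 for the large subunit. Under the other alternatives this distance was between -0.13 and -0.23 for the small subunit. For the large subunit it ranged from -0.059 without VEGF CAM 2 to 0.098 without VEGF CAM 1. It was also below 0 with quantile normalization (-0.055), a filter at the 60th percentile (-0.0098) and an offset of 32 (-0.006).

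**Figure D5:**
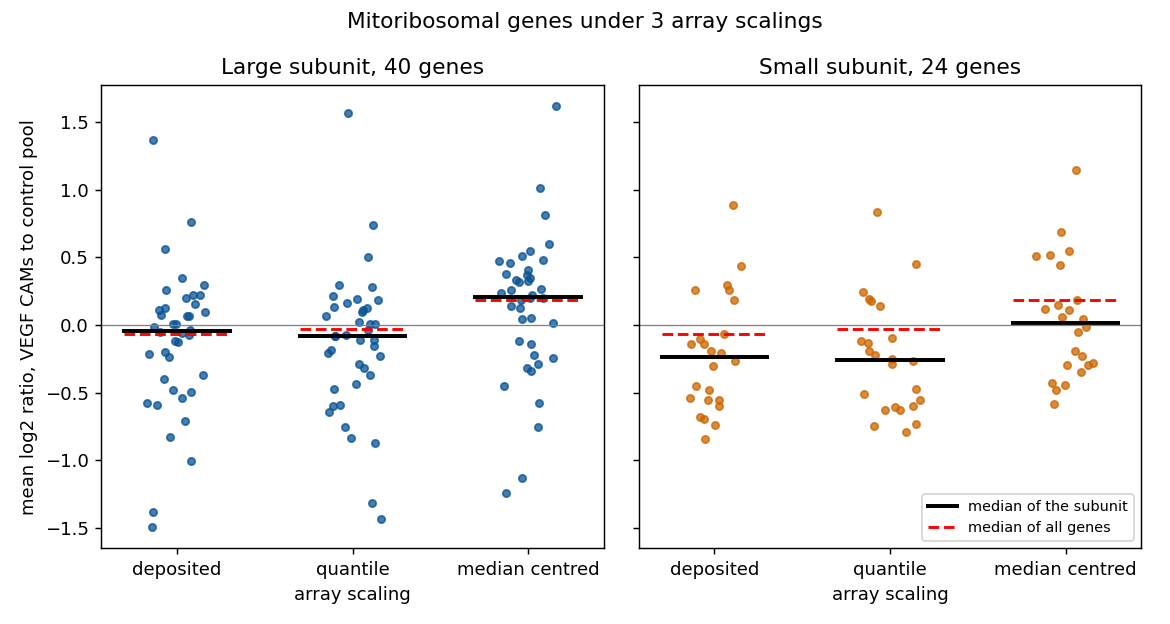
Mean log2 ratio of the VEGF CAMs to the control pool (vertical axis) for each large (left) and small (right) subunit gene under the deposited scaling, quantile normalization and median centring. Black bars are the subunit's median and red dashed bars the median of all genes, which lies above that of the small subunit under all 3.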

How the data were processed

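RNA of 3 VEGF CAMs and of 1 pool of 3 control CAMs was measured on Affymetrix chicken arrays (1 array each). The authors deposited 1 linear signal intensity per probe set and array, scaled to a common trimmed mean, and the submitters' processing notes name GCOS 1.2. 0 value columns were left out. Detection calls were not used here. A filter at the 40th percentile of mean signal (11.1) kept 22616 of 37693 chicken probe sets.

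Log2 ratios of each VEGF CAM to the control pool were computed. A gene was called where 2 or more of the 3 VEGF CAMs were beyond 2-fold the same way, after the fold part of the study's rule. For genes higher under VEGF-A the study also required a present call in the VEGF-A group, which was not applied here. limma 3.58.1 in R 4.3.3 was fitted over all kept probe sets with a variance trend (2 residual and 5.23 prior degrees of freedom), with Benjamini-Hochberg adjustment. Python 3.11.15, pandas 2.3.3 and matplotlib 3.10.9 were used for summaries and plots. The functions were tested on simulated data.

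Symbols come from the platform table. Among several probe sets of a gene, the one with the highest average signal was taken, and probe sets with several symbols were not used. All 67 members have the same symbol in the RefSeq table of GRCg7b, where 6 more such genes (MRPL35, MRPL36, MRPL49, MRPS15, MRPS18C, MRPS24) were not analysed here. Sequences and coordinates were not used here.

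The members, the comparison lists, the groups by place and by bacterial counterpart and the markers were chosen with earlier results of these data known, so they are described without tests. Named members are the 6 lowest and 4 highest by mean log2 ratio and the 4 brightest of each subunit, the called members and those whose probe sets differ in sign. Of each list, up to 3 genes with the largest change could be named. MRPL16, MRPL12 and the members below the filter were added after their values were seen, as were MRPL22 and COX5A. The alternatives were quantile normalization, median centring, a floor at the 20th percentile (3.12), no filter or one at the 60th percentile, an added offset of 32, other probe set rules, limma without a trend, each VEGF CAM left out, and subunits assigned by place in the mammalian ribosome. Precision is limited by there being 4 arrays.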

Additional observations from a re-analysis of the deposited data

How the results depend on the processing

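With 3 arrays against 1 pool, the spread of the control was not measured and small differences could not be resolved. No paired analysis was possible because the control is 1 pooled array, so the groups share fewer than 2 replicate numbers. Members called by limma at an adjusted p of 0.05 numbered 0 under all alternatives run.

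The count of members lower by the 2-fold rule, 2, was 1 with median centring and 1 with an offset of 32. It was 1 with a filter at the 60th percentile and 4 with no filter, which added the dim MRPL30 and MRPL33. The lower share of all genes, 6.03% as deposited, was 3.50%, 0.94%, 3.12% and 10.7% in this order. With a VEGF CAM left out the count ranged from 0 to 1 (0 without VEGF CAM 1), and the share of all genes from 2.57% to 3.05%. The rule then needed both remaining VEGF CAMs, so counts could not rise. The count of members higher, 1, was 3 with median centring (MRPL10, MRPL15, MRPS7) and 0 with an offset of 32. The higher share of all genes, 5.37% as deposited, was 8.96% and 1.34% under these 2 settings.

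The median log2 ratio of the large subunit, -0.04, was 0.21 with median centring and ranged from -0.11 to 0.05 with a VEGF CAM left out, above 0 without VEGF CAM 1. That of the small subunit, -0.24, was 0.018 with median centring and ranged from -0.26 to -0.22 with a VEGF CAM left out. Median centring moved the median of all genes to 0.19, and the share of higher among all 2-fold calls to 71.9%, against 59.1% with quantile normalization and 47.1% as deposited.

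At an unadjusted p under 0.05 by limma, the count of members lower, 0, was 1 with no filter (MRPS10) and ranged from 0 to 4 with a VEGF CAM left out, 4 without VEGF CAM 2 (MRPL47, MRPS17, MRPS27, MRPS31). The count of members higher, 2, was 3 with median centring and 3 with no filter (MRPL15 added in both), was 1 without a variance trend and ranged from 1 to 2 with a VEGF CAM left out, being 1 without VEGF CAM 1 and 1 without VEGF CAM 3.

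Single genes changed sign in 7 cases, all with small ratios. With median centring MRPL44 was at 0.044 and MRPL54 at 0.056. With a VEGF CAM left out MRPL44 ranged from -0.50 to 0.053 and MRPL54 from -0.40 to 0.088, both above 0 without VEGF CAM 1. MRPL13 ranged from -0.24 to 0.15 and MRPL28 from -0.039 to 0.22, both below 0 without VEGF CAM 3. With the mean of all probe sets MRPL3 was at -0.18. The other 327 values of named members kept their sign and, by limma, stayed above an adjusted p of 0.05, while calls by the 2-fold rule and at an unadjusted p moved as given above. Assigning subunits by place in the mammalian ribosome moved MRPS30 and MRPS18A to the large subunit and left MRPS36 out. The large median stayed at -0.04 and the small one was -0.27. The causes were not tested.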
